A study of Mus musculus with 16 samples.

Results

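The 10 genes described here carry the liver's control of body iron: Hamp and Hamp2, which encode the hepcidin peptides, and 8 genes that set or report iron signals, Tfrc, Tfr2, Slc40a1, Trf, Hjv, Bmp6, Id1 and Smad7. They were chosen by name for their part in iron handling, with earlier results of these data known, and are 10 of the 41079 genes in the table of read counts. RNA was sequenced from whole frozen liver of 16 mice aged 20 to 22 months on the C57BL/6J background, 1 library per mouse and 4 mice in each of 4 groups. LKO mice carried a Gcgr allele with loxP sites around part of its coding exons, together with Cre recombinase driven by the Albumin promoter, which removes that part in cells of the hepatocyte lineage. CRE- mice carried the same floxed allele without Cre. The groups were male CRE-, male LKO, female CRE- and female LKO. Gcgr encodes the glucagon receptor, and the comparison of LKO with CRE- of the same sex asks what losing this receptor in hepatocytes does to liver RNA in old mice. Cre under this promoter acts from before birth, and the paper treats the receptor's loss as lifelong.

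Hepcidin is a peptide hormone that hepatocytes secrete. It binds ferroportin, the iron exporter encoded by Slc40a1, and causes it to be degraded, so that less iron leaves gut cells, macrophages and hepatocytes. Hepcidin transcription is driven mainly by BMP6 and related ligands from liver endothelium, which act through hemojuvelin (Hjv) and SMAD proteins. Interleukin 6 adds a second drive through STAT3, while a strong demand for red cells lowers hepcidin. Mice have a duplicated hepcidin gene, Hamp2, next to Hamp. Its peptide, unlike that of Hamp, is not known to regulate iron.

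Each library held between 33268424 and 56488920 counted reads. The median was 44288170 in male CRE-, 38475730 in male LKO, 46840916 in female CRE- and 37348750 in female LKO mice. Levels are given as CPM, a gene's reads per megaread of the TMM-scaled library size, and as RPKM, the same per kilobase of exon, where genes are compared with each other. Gcgr (chr11 in build GRCm39, 120420011 to 120429815) averaged 188 ± 20.9 CPM in female CRE- and 98.2 ± 36.6 in female LKO mice (SD, n = 4 each). In males it averaged 175 ± 31.8 CPM in CRE- and 136 ± 18.3 in LKO mice (SD, n = 4 each). Female groups did not overlap and male groups did. The log2 fold change was -0.93 in females (SE 0.247, edgeR adjusted p = 0.0443), a call lost with females fitted alone (edgeR adjusted p = 0.132), without the filter (edgeR adjusted p = 0.0545) and without any 1 of 13 mice. In males it was -0.37 (SE 0.245, edgeR adjusted p = 0.671). Reads from exons outside the removed part still count, as do reads from liver cells other than hepatocytes.

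The labelled tissue was checked against hepatocyte genes. All 8 of these markers were read in every library, and their sum lay between 54412 CPM in female LKO replicate 1 and 137180 CPM in female CRE- replicate 4. Albumin (Alb) was the most abundant of them in each library. The sums ran from 76123 to 112940 CPM in male CRE-, from 68846 to 97599 in male LKO, from 117360 to 137180 in female CRE- and from 54412 to 95422 in female LKO mice. The female groups did not overlap in this sum. None of the 8 genes passed in edgeR in either sex, with 2 at an unadjusted p under 0.05 in males and 3 in females (9.53% and 21.4% of all genes tested). In females 8 of 8 were below 0 (median log2 fold change -0.73, and -0.67 without female LKO replicate 4). Female LKO replicate 4 stood apart from the other mice in several iron genes.

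An edgeR quasi-likelihood fit over the 16 libraries tested 16742 genes, and all 10 iron genes were among them. Hamp2 in females was the 1 iron gene past an adjusted p of 0.05, where 4.24% of all genes tested passed (710 genes, 350 higher and 360 lower in LKO). In males none of the 10 passed in edgeR, where 0.454% of all genes did (76 genes, 37 higher and 39 lower); 3 of the 10 had an unadjusted p under 0.05, and DESeq2 called 1. Over all genes tested, 9.53% had an unadjusted p under 0.05 in males and 21.4% in females. The counts at this p given below for lists of genes are to be read against these shares. Counts of edgeR calls in the lists are to be read against 0.454% in males and 4.24% in females. The median log2 fold change of the 10 genes was 0.00 in males, beside -0.01 over all genes tested. In females it was -0.11, beside 0.04. A call on 1 of 10 genes is too few to say anything about the genes as a group.

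Hamp encodes the iron-regulating hepcidin and lies on the minus strand of chr7 from 30641793 to 30643454. In male CRE- replicates 1 to 4 its level was 639, 835, 188 and 668 CPM. In the male LKO mice, in the same order, it was 1867, 1122, 436 and 468 CPM. Male LKO replicates 1 and 2 were above every male CRE- mouse and the other LKO mice lay inside the CRE- range, so the male groups overlapped. In female CRE- replicates 1 to 4 the level of Hamp was 889.8, 955, 1125 and 1306 CPM. In female LKO mice it was 432, 101, 658 and 3.24 CPM. Every female LKO mouse lay below every female CRE- mouse, and LKO replicate 4 had almost no Hamp RNA, 112 reads in a library where Alb alone reached 53284 CPM.

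The fitted difference of Hamp between LKO and CRE- was 0.74 on the log2 scale in males (SE 0.864, edgeR adjusted p = 0.819), and 0.19 without male LKO replicate 1. In females it was -1.84 (SE 0.887, edgeR adjusted p = 0.242), a fold of 3.58 lower that did not pass the test. Without female LKO replicate 4 it was -1.42, and without replicate 3 it was -2.60. The male and female differences were themselves compared, and their gap was -2.58 on the log2 scale (SE 1.24, edgeR adjusted p = 0.319). Over fits without 1 mouse this gap lay between -3.33, without female LKO replicate 3, and -2.02, without male LKO replicate 1. Hamp varied widely within groups, with an SD of 69.3% of the mean in male LKO, 101% in female LKO, 47.6% in male CRE- and 17.5% in female CRE- mice.

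Hamp2 lies beside Hamp on the same strand of chr7, from 30621797 to 30623606. Its level in male CRE- replicates 1 to 4 was 12.98, 70.1, 9.88 and 27.8 CPM. In male LKO mice it was 20.4, 10.2, 25.4 and 12.6 CPM. All 8 males were low, and the groups overlapped fully. In female CRE- replicates 1 to 4 Hamp2 reached 312, 638, 778 and 1277 CPM. In female LKO mice it was 2.49, 93.0, 31.4 and 0.347 CPM. The female CRE- mice stood apart from all 12 other mice.

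Hamp2 fell in female LKO mice by 4.56 on the log2 scale, a fold of 23.6 (SE 1.14, edgeR adjusted p = 0.0368), and was lower in 4 of 4 mice. In males the log2 fold change was -0.82 (SE 0.992, edgeR adjusted p = 0.824), and it was 0.02 without male CRE- replicate 2. The difference between the sexes in the LKO effect on Hamp2 was -3.74 (SE 1.44, edgeR adjusted p = 0.243), which did not pass. Over fits without 1 mouse it lay between -5.21, without female LKO replicate 2, and -3.32, without female CRE- replicate 4. With the replicate block it was -5.09, and it passed in none of these fits. No gene of the 16742 passed the test of this difference in the main edgeR fit, a share of 0.0%. At an unadjusted p under 0.05 there were 2672, 3 of them iron genes, and DESeq2 called 371 genes and no iron gene. The female call of Hamp2 sat close to the threshold. Of the 5 alternatives that kept every mouse it was made in 4, with DESeq2 (adjusted p = 0.00098), RLE scaling, no filter and the replicate block (-5.35). It was lost when females were fitted alone (-4.54, edgeR adjusted p = 0.111) and without any 1 of 7 libraries, female CRE- replicates 2, 3 and 4, female LKO replicates 1 and 3, and male LKO replicates 2 and 4. Across fits without 1 female mouse the log2 fold change lay between -6.03, without LKO replicate 2, and -4.14, without LKO replicate 4, with edgeR adjusted p from 0.0148 to 0.0868.

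Among control mice, Hamp2 was read mainly in females. Female CRE- mice averaged 751 ± 401 CPM and male CRE- mice 30.2 ± 27.7 CPM (SD, n = 4 each), without overlap. The log2 fold change between them was 4.64 (SE 1.14, edgeR adjusted p = 0.0711), a fold of 24.9 that missed the threshold in edgeR and passed in DESeq2 (adjusted p = 0.0013). It also passed in edgeR without female LKO replicates 1, 2 or 4, mice outside this comparison (adjusted p from 0.0168 to 0.0412). It passed in none of the 8 edgeR fits without 1 of the compared mice (adjusted p from 0.0687 to 0.228). Those 8 fits gave a log2 fold change from 4.22, without female CRE- replicate 4, to 5.48, without male CRE- replicate 2. In this comparison 0.92% of all genes passed in edgeR (154 genes) and none of the 10 iron genes did; 1 of the 10 had an unadjusted p under 0.05 (12.7% of all genes), and DESeq2 called 1. Hamp was also higher in each female CRE- mouse than in each male CRE- mouse, with a log2 fold change of 0.88 (SE 0.866, edgeR adjusted p = 0.688). Groups without overlap were found for 2 of the 10 iron genes here, Hamp and Hamp2, and for 7.54% of all genes tested.

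The balance between both hepcidin genes was also read within each library, and its difference between groups was not tested. Hamp2 gave 1.99%, 7.74%, 5.0% and 3.99% of all hepcidin reads in male CRE- replicates 1 to 4. In male LKO mice its share was 1.08%, 0.899%, 5.52% and 2.62%. In female CRE- mice it was 25.9%, 40.04%, 40.9% and 49.4%, so that nearly equal numbers of reads came from both genes in replicate 4. In female LKO mice the share was 0.574%, 47.9%, 4.56% and 9.68%. Female LKO replicate 2 thus kept a share like that of female CRE- mice at a lower level of both genes, while the other LKO females had shares of 9.68% or less. The share in female LKO replicate 4 rests on 12 of 124 reads, with a 95% Wilson interval from 5.62% to 16.2%. In female LKO replicate 2 the interval ran from 46.8% to 49.1% and in replicate 1 from 0.471% to 0.698%. These intervals cover counting error only, and both reads of a pair were counted. The group means were 39.1% ± 9.73 in female CRE- and 15.7% ± 21.8 in female LKO mice (SD, n = 4 each).

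The hepcidin genes are much alike in sequence, and whether reads were confused between them was not tested. Their longest annotated transcripts have 688 bases (Hamp) and 444 bases (Hamp2), and 414 of 437 aligned bases are identical (94.7%). The longest stretch they share is 87 bases, and no window of 150 bases, the read length, occurs in both. Reads that mapped to more than 1 place were not counted, so levels of both genes may be too low, and a small level of Hamp2 in a liver rich in Hamp is uncertain. In male LKO replicate 1, which had the most Hamp RNA, Hamp2 reads were 1.08% of the sum.

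The promoters of both genes are shown because the genes lie side by side and share most of their sequence. The 250 bases before each start were read from GRCm39, minus strand, at chr7:30643455-30643704 for Hamp and chr7:30623607-30623856 for Hamp2, and equal those in the RefSeq promoter table (build GRCm38.p6). Capitals mark matches to GGCGCC, the core of the BMP response element known from hepcidin promoters, and to TTCNNNGAA, the pattern bound by STAT proteins. Both strands were searched, and the patterns do not overlap.
Hamp: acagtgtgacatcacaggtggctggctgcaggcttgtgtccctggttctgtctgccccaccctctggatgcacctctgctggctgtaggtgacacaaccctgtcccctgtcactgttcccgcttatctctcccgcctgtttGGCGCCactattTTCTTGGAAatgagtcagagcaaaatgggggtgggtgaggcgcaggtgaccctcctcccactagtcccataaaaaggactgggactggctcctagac
Hamp2: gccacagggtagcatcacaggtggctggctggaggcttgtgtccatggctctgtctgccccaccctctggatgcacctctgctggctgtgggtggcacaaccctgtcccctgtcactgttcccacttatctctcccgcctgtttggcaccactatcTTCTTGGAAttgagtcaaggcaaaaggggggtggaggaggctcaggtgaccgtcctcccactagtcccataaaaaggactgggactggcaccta
Of 247 aligned promoter bases, 227 are identical (91.9%). Hamp has GGCGCC from 109 to 104 bases before its start and TTCTTGGAA from 97 to 89 bases before it. Hamp2 has TTCTTGGAA from 94 to 86 bases before its start and no GGCGCC in this window. Against the Hamp element, the aligned bases of Hamp2 have 1 difference, G4A, counted from 1 at the element's 5′ end, and 0 differences in the STAT pattern. In the RefSeq table, 3149 of 32851 promoters of this length hold GGCGCC (9.6%), 2306 hold TTCNNNGAA (7.0%) and 121 hold both (0.368%). A match is a description of the letters and does not show that a factor binds there.

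**Figure D1:**
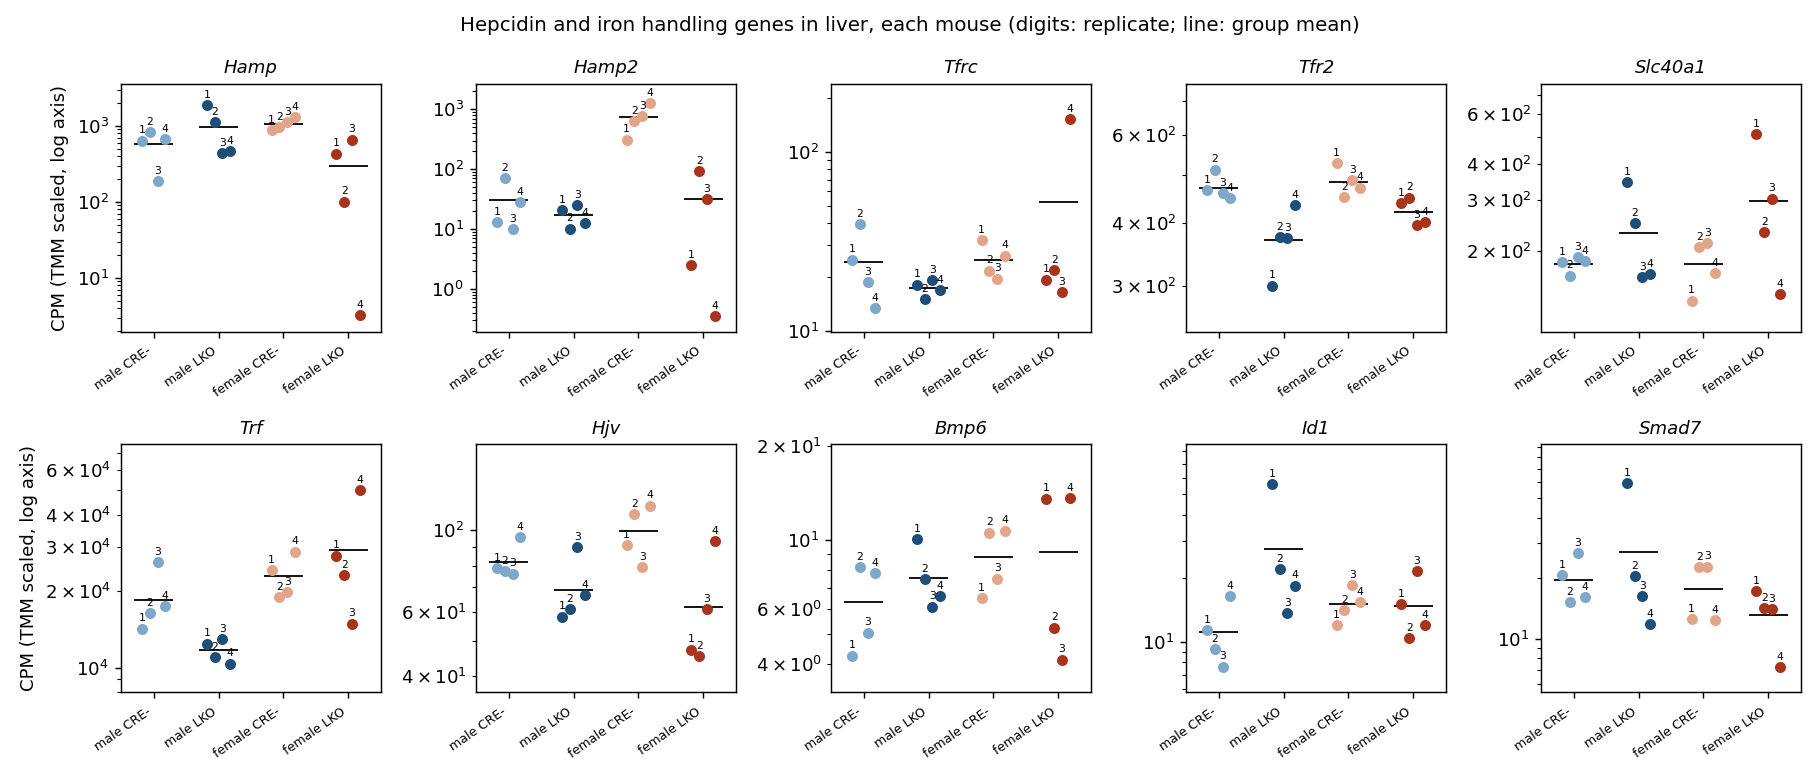
Level of each of the 10 iron genes in CPM (log axis) in every mouse, by group, with 4 points per group; horizontal bars are group means. Hamp2 is high in the 4 female CRE- mice and low in the other 12, and female LKO replicate 4 stands alone at 152 CPM of Tfrc and 3.24 CPM of Hamp.

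Upstream of hepcidin are the ligand BMP6, its co-receptor hemojuvelin and the iron sensor TFR2. Bmp6, on chr13 from 38529098 to 38684283, is made by liver endothelium and was the lowest of the 10 genes per length. Its level was 4.26, 8.15, 5.04 and 7.82 CPM in male CRE- and 10.03, 7.50, 6.11 and 6.62 CPM in male LKO mice. It was 6.52, 10.6, 7.52 and 10.7 CPM in female CRE- and 13.5, 5.24, 4.13 and 13.6 CPM in female LKO mice. The groups overlapped in both sexes, and LKO females fell into a high pair, replicates 1 and 4, and a low pair. The log2 fold change was 0.26 in males (SE 0.357, edgeR adjusted p = 0.848) and 0.05 in females (SE 0.356, edgeR adjusted p = 0.961). In females its sign turned without LKO replicate 4 (-0.22), LKO replicate 1 (-0.19), CRE- replicate 1 (-0.07) or CRE- replicate 3 (-0.02).

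Hjv encodes hemojuvelin, the BMP co-receptor without which hepcidin stays low, and lies on chr3 from 96432479 to 96436532. It was read at 91.2, 110.3, 79.4 and 117 CPM in female CRE- mice. In female LKO mice it was at 47.3, 45.4, 60.9 and 93.4 CPM. The first 3 LKO mice were below all female CRE- mice, and replicate 4, the mouse with almost no Hamp, was not. The female log2 fold change was -0.69 (SE 0.223, edgeR adjusted p = 0.0852), and without LKO replicate 4 it was -0.95 and passed (edgeR adjusted p = 0.0339, within a range of 0.0339 to 0.255 over fits without 1 female mouse). With the replicate number as a block it was -0.73 and also passed (edgeR adjusted p = 0.0422). Males had 78.7, 77.3, 76.1 and 95.8 CPM in CRE- and 58.1, 61.0, 89.7 and 66.5 CPM in LKO mice. They overlapped, with a log2 fold change of -0.25 (SE 0.222, edgeR adjusted p = 0.756). The gap between the sexes was -0.43 (SE 0.314, edgeR adjusted p = 0.486).

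Tfr2 encodes transferrin receptor 2, which senses iron-loaded transferrin on hepatocytes, and lies on chr5 from 137568127 to 137586344. It varied little within groups, with 465, 511, 459 and 449 CPM in male CRE- and 301, 375, 374 and 436 CPM in male LKO mice. Females had 526, 450.3, 488 and 471 CPM in CRE- and 438, 450.1, 398 and 403 CPM in LKO mice. In each sex every LKO mouse was below every CRE- mouse, in females by a gap between 450.1 and 450.3 CPM. The female direction depended on the scaling: without TMM, female CRE- mice averaged 117 ± 14.015 RPKM and female LKO mice 123 ± 8.61 (SD, n = 4 each). TMM factors ran from 0.807 to 0.953 in female CRE- and from 1.01 to 1.13 in female LKO mice. The log2 fold change was -0.34 in males (SE 0.15, edgeR adjusted p = 0.474) and -0.20 in females (SE 0.15, edgeR adjusted p = 0.493). Averaged over both sexes it was -0.27 (SE 0.106, edgeR adjusted p = 0.207), and DESeq2 called it (-0.27, adjusted p = 0.0357).

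Over that average of both sexes, 2.86% of all genes tested passed in edgeR (478 genes) and none of the 10 did; 5 of the 10 had an unadjusted p under 0.05 (15.8% of all genes), and DESeq2 called 2, Tfr2 and Hamp2. Hamp2 stood at -2.69 (SE 0.74, edgeR adjusted p = 0.0634) and passed without female LKO replicate 2 (-3.42, edgeR adjusted p = 0.0166) or 4 (-2.48, edgeR adjusted p = 0.0371), within a range of 0.0166 to 0.146 over the fits without 1 mouse. Hjv, at -0.47 (SE 0.157, edgeR adjusted p = 0.134), passed without female LKO replicate 4 (-0.61, edgeR adjusted p = 0.0247). Groups without overlap were found in males for 2 of the 10 genes, Tfr2 and Trf, and for 6.49% of all genes tested. In females they were found for 3 of the 10, Hamp, Hamp2 and Tfr2, the last by the narrow gap given above and with TMM scaling, and for 11.6% of all genes.

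Id1 and Smad7 are transcribed when BMP signals reach SMAD proteins, and so report the signal that also drives Hamp; Smad7 in turn inhibits it. Id1, on chr2 from 152578171 to 152579330, was at 11.4, 9.27, 7.64 and 16.5 CPM in male CRE- mice. In male LKO mice it was at 55.8, 22.2, 13.7 and 18.5 CPM. Replicate 1 was the highest of all 16 mice and replicate 3 the only LKO male inside the CRE- range. The male log2 fold change was 1.30 (SE 0.375, edgeR adjusted p = 0.177), a fold of 2.46. DESeq2 gave 1.28 and called it (adjusted p = 0.0408, with adjusted p from 0.0408 to 0.303 over the alternatives that kept every mouse). Without male LKO replicate 1 the edgeR value was 0.67. Females had 12.02, 14.2, 18.5 and 15.4 CPM in CRE- and 15.1, 10.5, 21.6 and 11.98 CPM in LKO mice. They overlapped, at a log2 fold change of -0.03 (SE 0.369, edgeR adjusted p = 0.98), and without TMM the female LKO mean was the higher. The gap between the sexes was -1.32 (SE 0.524, edgeR adjusted p = 0.254).

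Smad7, on chr18 from 75500436 to 75529006, was at 20.7, 15.2, 26.7 and 16.1 CPM in male CRE- and 59.3, 20.4, 16.3 and 11.9 CPM in male LKO mice. Male LKO replicate 1 was again the highest mouse. Its log2 fold change in males was 0.46 (SE 0.418, edgeR adjusted p = 0.766), and -0.30 without that mouse. Females had 12.5, 22.7, 22.8 and 12.4 CPM in CRE- and 17.2, 14.2, 14.1 and 7.23 CPM in LKO mice, with overlap. The lowest value was that of female LKO replicate 4, which also had the least Hamp RNA. The female log2 fold change was -0.42 (SE 0.419, edgeR adjusted p = 0.618), and -0.21 without that mouse.

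The wider BMP pathway was read from lists that hold some of the same genes. Of 21 ligands, receptors and cofactors, all were tested and none passed in either sex in edgeR; 3 had an unadjusted p under 0.05 in males and 3 in females (9.53% and 21.4% of all genes). Male CRE- replicate 3 was the highest of the 16 mice for 9 of the 21 and female LKO replicate 4 the lowest for 8. Shares over all genes are not given for such counts, here or below, so they do not set a list apart from other genes. The gene with the smallest p was Smad9, a signal-carrying SMAD, in males (log2 fold change 1.16, SE 0.505, edgeR adjusted p = 0.47) and Hjv in females. Tmprss6, whose protease cleaves hemojuvelin and lowers hepcidin, had the highest level per length of that list. It stood at 491, 555, 536 and 561 CPM in female CRE- and 327, 465, 376 and 322 CPM in female LKO mice. Those groups did not overlap, at -0.52 (SE 0.175, edgeR adjusted p = 0.092), and in males the value was -0.08.

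Of 11 BMP target and feedback genes 10 were tested, Nog being too low, and none passed in edgeR; 2 had an unadjusted p under 0.05 in males and 3 in females. In males 9 of 10 had a log2 fold change above 0 (median 0.49) and in females 9 of 10 below 0 (median -0.33). In the test of the difference between the sexes none of the 10 passed in edgeR, and 5 had an unadjusted p under 0.05. In that test 2672 of all 16742 genes had an unadjusted p under 0.05. Over all genes tested the median log2 fold changes were -0.01 in males and 0.04 in females. Id4 was at 1.74, 0.668, 1.77 and 2.11 CPM in male CRE- and 8.67, 4.62, 4.77 and 2.05 CPM in male LKO mice. Its male log2 fold change was 1.68 (SE 0.43, edgeR adjusted p = 0.117). Id3 was at 90.4, 120.5, 72.9 and 77.2 CPM in female CRE- and 39.9, 39.2, 56.3 and 28.0 CPM in female LKO mice, without overlap. Its female log2 fold change was -1.14 (SE 0.336, edgeR adjusted p = 0.0626), and in males it was 0.07. Male LKO replicate 1 was the highest of 16 for 6 of the 10 genes (Id1, Id4, Smad6, Smad7, Atoh8 and Hamp), and without it 7 of 10 were above 0 in males (median 0.22). Female LKO replicate 4 was the lowest for 6 of 10, and without it 7 of 10 were below 0 in females (median -0.16).

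Tfrc, Slc40a1 and Trf move iron. Tfrc encodes the receptor that takes up iron-loaded transferrin, and lies on chr16 from 32427714 to 32451612. It was at 24.95, 39.3, 18.7 and 13.3 CPM in male CRE- and 18.1, 15.01, 19.1 and 16.8 CPM in male LKO mice. In female CRE- mice it was at 32.2, 21.7, 19.5 and 26.3 CPM, and in female LKO mice at 19.3, 21.8, 16.4 and 152 CPM. Female LKO replicate 4 was far above all 15 other mice, whose range was 13.3 to 39.3 CPM. The female log2 fold change of 1.07 (SE 0.564, edgeR adjusted p = 0.289) became -0.38 without it, so that its sign rested on 1 mouse. In males the value was -0.48 (SE 0.561, edgeR adjusted p = 0.819).

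Slc40a1 encodes ferroportin, the exporter that hepcidin removes from the cell surface, and lies on chr1 from 45947230 to 45965690. Macrophages express it as well as hepatocytes. It was at 182, 164, 189.96 and 185 CPM in male CRE- and 347, 249.98, 162 and 166 CPM in male LKO mice. Females had 134, 207, 212 and 167 CPM in CRE- and 511, 232, 304 and 142 CPM in LKO mice. In each sex LKO mice spread more widely than CRE- mice and overlapped with them, with female LKO replicate 1 the highest of 16. The log2 fold change was 0.36 in males (SE 0.321, edgeR adjusted p = 0.758) and 0.72 in females (SE 0.322, edgeR adjusted p = 0.202), the latter 0.35 without female LKO replicate 1. Without male LKO replicate 1 the male value was 0.0792.

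Trf encodes transferrin, the iron carrier of blood plasma that hepatocytes secrete, and lies on chr9 from 103086075 to 103107485. Its level in male CRE- mice was 14262, 16406, 25960 and 17481 CPM. In male LKO mice it was 12445, 10983, 12987 and 10379 CPM, each below every male CRE- mouse. In female CRE- mice it was 24197, 19016, 19843 and 28666 CPM, and in female LKO mice 27643, 23200, 14934 and 49969 CPM. The female LKO mice lay on both sides of the CRE- range, replicate 3 below it and replicate 4 far above. The male log2 fold change was -0.66 (SE 0.311, edgeR adjusted p = 0.519), a fold of 1.58 lower. The female value was 0.34 (SE 0.31, edgeR adjusted p = 0.584), and -0.07 without female LKO replicate 4. The gap between the sexes was 0.999 (SE 0.439, edgeR adjusted p = 0.289).

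Cells short of iron hold on to Tfrc RNA and hold back translation of ferritin and ferroportin RNA, through iron response elements that bind the proteins IRP1 and IRP2. These short hairpins are shown because Tfrc and Slc40a1 share them with ferritin RNA. Whether they set the level of Tfrc RNA in these livers was not tested. The search ran over annotated transcripts of GRCm39, on the transcript's strand. It took a bulged C, 5 bases, the loop CAGTGN with G excluded at N, and 5 bases paired with the first 5. The 5 bases before the bulged C also had to pair with the 5 bases after this stem, at 4 or more positions. G-T pairs were allowed. Capitals mark the loop.
Tfrc 3′UTR at chr16:32450038-32450064: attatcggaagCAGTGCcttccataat
Tfrc 3′UTR at chr16:32450417-32450443: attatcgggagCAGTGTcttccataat
Tfrc 3′UTR at chr16:32450482-32450508: tatatcggagaCAGTGAtctccatatg
Tfrc 3′UTR at chr16:32450529-32450555: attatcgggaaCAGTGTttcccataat
Slc40a1 5′UTR at chr1:45964626-45964652: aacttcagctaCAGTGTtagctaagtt
Fth1 5′UTR at chr19:9960097-9960123: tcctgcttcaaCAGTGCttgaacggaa
Ftl1 5′UTR at chr7:45109204-45109230: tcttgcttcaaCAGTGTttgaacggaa
Tfrc had 4 elements in the 3′UTR, and Slc40a1, Fth1 and Ftl1 had 1 each in the 5′UTR. The Slc40a1 and Ftl1 elements lie on the minus strand and the others on the plus strand. Among 21623 genes with coding transcripts, 28 held a match (0.129%). Transcripts of Slc40a1 without the element are also annotated: 5 of 9 coding transcripts held it, against 10 of 12 for Tfrc, and the counts do not tell transcripts apart.

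The genes of iron sensing and storage were read beside them. Of 6 genes of the IRP system none passed in males in edgeR, with 0 at an unadjusted p under 0.05, and 1 fell in females. This was Aco1, which encodes IRP1, at 219.7, 291, 274 and 262 CPM in female CRE- and 139, 179, 143 and 158 CPM in female LKO mice, without overlap. Its log2 fold change was -0.76 (SE 0.187, edgeR adjusted p = 0.0354), and in males -0.37 (SE 0.186, edgeR adjusted p = 0.556). The female call of Aco1 was lost without any 1 of female CRE- replicates 2, 3 and 4 and female LKO replicates 1, 3 and 4 (-0.77 to -0.69, edgeR adjusted p from 0.0565 to 0.118), and with females fitted alone (-0.74, edgeR adjusted p = 0.0758). The gap between the sexes was -0.39 (edgeR adjusted p = 0.457). Skp1 had the highest level per length of this list, at -0.13 in males and -0.28 in females.

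Of 6 genes of ferritin and its turnover 5 were tested and none passed in edgeR, with 1 in males and 0 in females at an unadjusted p under 0.05. Ftl1, the ferritin light chain, had 0.15 on the log2 scale in males (SE 0.335, edgeR adjusted p = 0.913) and -0.48 in females (SE 0.336, edgeR adjusted p = 0.445). Pcbp1, an iron chaperone that loads ferritin, had 0.33 in males (SE 0.151, edgeR adjusted p = 0.507) and -0.23 in females. All 5 tested genes were below 0 in females and 4 of 5 above 0 in males.

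Of 15 genes of iron uptake, export and reduction 14 were tested and none passed in edgeR; 3 had an unadjusted p under 0.05 in males and 7 in females (9.53% and 21.4% of all genes). Their median log2 fold change was -0.32 in males, with 10 of 14 below 0, and 0.77 in females, with 11 of 14 above 0. The latter median became 0.03, with 7 of 14 above 0, when female LKO replicate 4 was left out. Slc11a1, an iron transporter of macrophages, was at 15.6, 10.3, 11.1 and 16.6 CPM in female CRE- and 86.3, 15.98, 31.7 and 29.5 CPM in female LKO mice. Its female log2 fold change was 1.61 (SE 0.443, edgeR adjusted p = 0.0509). Slc39a14, an importer of iron not bound to transferrin, had -0.71 in males (SE 0.291, edgeR adjusted p = 0.435) and -0.18 in females. Lcn2, which binds the iron carriers of bacteria, had the highest level per length, at -2.03 in males (SE 1.15, edgeR adjusted p = 0.605) and 3.31 in females (SE 1.21, edgeR adjusted p = 0.118). Its level in female LKO replicate 4 was 4025 CPM, against 83.5 to 202 CPM in the other female LKO mice, and without that mouse its log2 fold change was 0.24.

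**Figure D2:**
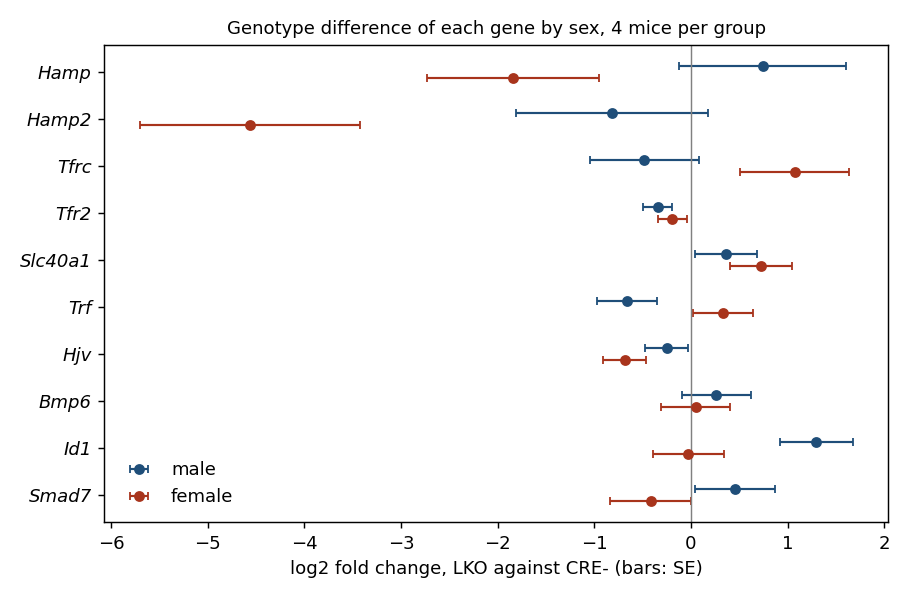
Log2 fold change of LKO against CRE- for each iron gene, in males (blue) and females (red), from the edgeR fit; bars are 1 SE and each group has 4 mice. Hamp2 in females, at -4.56, lies farthest from 0.

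Per length, the order of the genes was similar across groups. In male CRE- mice Trf averaged 7945 ± 2201 RPKM and Hamp 1431 ± 681 (SD, n = 4), without overlap. They were followed by Tfr2 at 127 ± 7.53, Hamp2 at 69.1 ± 63.5, Slc40a1 at 51.7 ± 3.28 and Hjv at 38.7 ± 4.38 RPKM. Tfr2 and Hamp2 overlapped, as did Hamp2 and Slc40a1. Below Hjv without overlap came Id1 at 9.66 ± 3.34, Tfrc at 4.68 ± 2.18 and Smad7 at 4.43 ± 1.18 RPKM, Id1 overlapping with Tfrc and Tfrc with Smad7, and Bmp6 at 1.76 ± 0.546 RPKM was below Smad7 without overlap. In female CRE- mice Hamp2 stood in place 3, at 1719 ± 918 RPKM, overlapping with Hamp at 2627 ± 459 RPKM and above Tfr2 at 131 ± 8.66 without overlap. In the LKO groups Hamp2 stood in place 5 of 10, at 39.3 ± 16.1 RPKM in males and 72.8 ± 98.9 in females, overlapping with Slc40a1 above it and Hjv below it. Trf was the highest and Bmp6 the lowest gene in each of the 4 groups; Trf overlapped with Hamp in male LKO mice alone.

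Female LKO replicate 4 stood apart from the other livers in several of these genes at once. It had the least Hamp, Hamp2 and Smad7 RNA of all 16 mice and the most Tfrc, Trf and Bmp6. For Bmp6, at 13.6 CPM, it did not stand apart, since female LKO replicate 1 had 13.5 CPM. Replicate 4 was also the highest mouse for 10 of 16 acute-phase genes, which hepatocytes make in inflammation. It was the highest for 6 of 14 genes of iron uptake, export and reduction as well. The share of all genes highest in this mouse is not given, so these counts do not set the lists apart from other genes. Lcn2 is on both of these lists, and Tfrc is 1 of the 6. This mouse also had the largest sums of neutrophil genes (669 CPM) and of erythroid genes (1658 CPM). Orm2, an acute-phase glycoprotein, reached 1904 CPM in it, against 105 to 369 CPM in the other female LKO mice and 25.5 to 278 CPM in female CRE- mice. Hpx, the haem-binding protein hemopexin, reached 17476 CPM, against 4890 to 9532 CPM in the other female LKO mice. In this mouse high acute-phase RNA stood beside almost no hepcidin RNA.

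**Figure D3:**
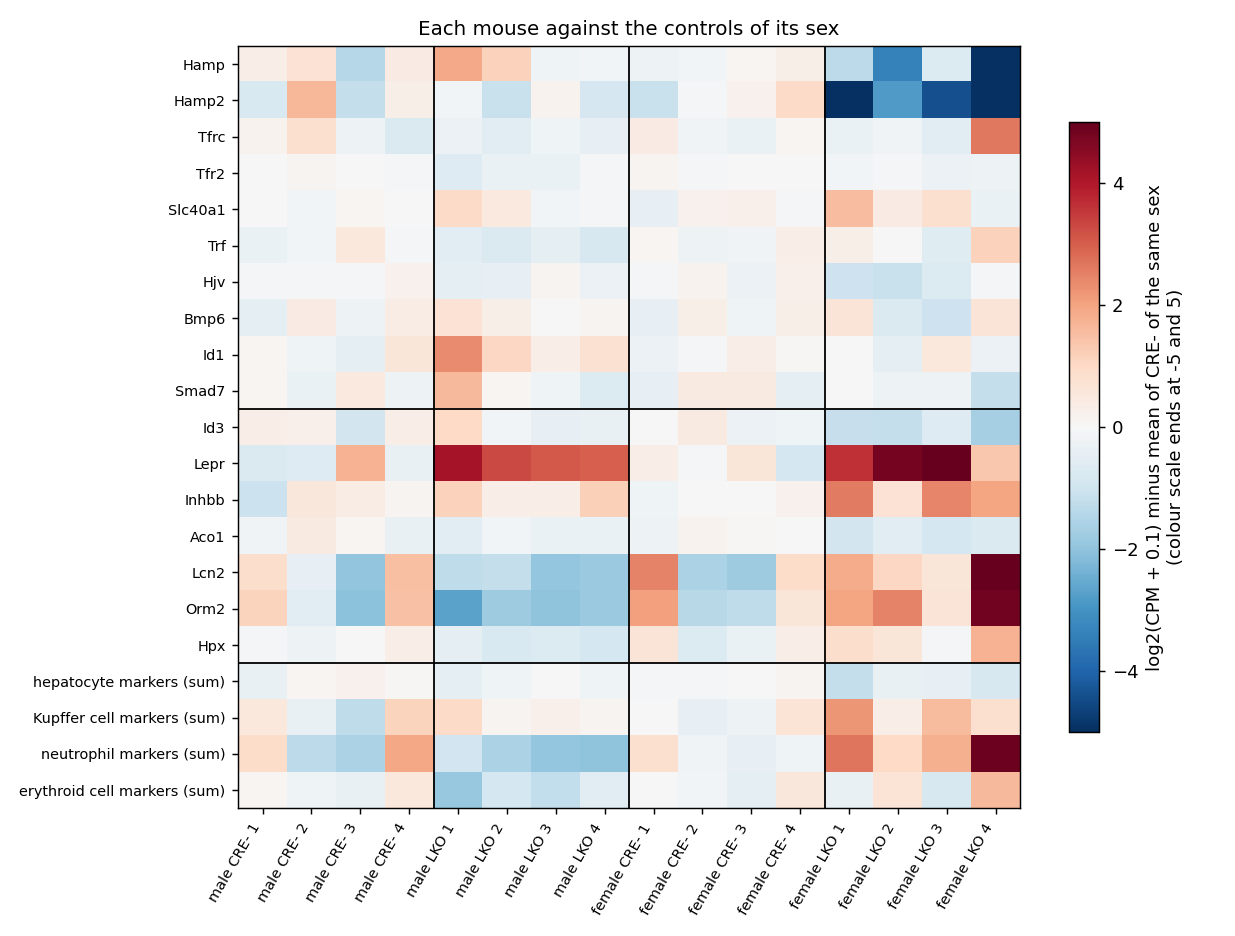
Level in every mouse (columns, by group) of the 10 iron genes, 7 other genes and 4 marker sums (lines of the grid), drawn as log2 of CPM plus 0.1 minus the mean of the CRE- mice of the same sex; colours end at -5 and 5. Female LKO replicate 4 has the lowest Hamp, at 3.24 CPM, and the highest Tfrc, at 152 CPM.

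None of the 16 acute-phase genes passed in either sex in edgeR; 3 had an unadjusted p under 0.05 in males and 7 in females (9.53% and 21.4% of all genes). Their median log2 fold change was -0.41 in males and 0.83 in females, with 14 of 16 below 0 in males and 12 of 16 above 0 in females. Orm1, with the smallest p in males, had -1.79 (SE 0.558, edgeR adjusted p = 0.245) and Hpx, with the highest level, -0.72 (SE 0.343, edgeR adjusted p = 0.538). In females Orm2 had 2.61 (SE 0.92, edgeR adjusted p = 0.108) and Hpx 0.84 (SE 0.344, edgeR adjusted p = 0.165). Without female LKO replicate 4 these were 1.16 and 0.41, and the female median of the list was 0.06, with 9 of 16 above 0.

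A list of 10 genes held the route from interleukin 6 to STAT3, the leptin receptor and, as a further input to hepcidin, the activin gene Inhbb. Of these 9 were tested, Il6 itself being too low. None passed in males in edgeR, with 2 at an unadjusted p under 0.05, and 2 rose in females, Lepr and Inhbb. Lepr, the leptin receptor, was at 2.84, 2.14, 3.45 and 1.18 CPM in female CRE- and 29.6, 64.2, 83.0 and 5.81 CPM in female LKO mice. It was the lowest among LKO females in replicate 4 and did not overlap between the groups, at a log2 fold change of 4.25 (SE 0.743, edgeR adjusted p = 0.00977). In males it was at 1.74, 1.85, 10.3 and 2.29 CPM in CRE- and 54.4, 30.1, 25.8 and 24.4 CPM in LKO mice, again without overlap, at 3.06 (SE 0.703, edgeR adjusted p = 0.0759). Inhbb encodes the subunit of activin B, which can drive hepcidin through SMAD proteins. It was at 2.48, 2.92, 2.92 and 3.42 CPM in female CRE- and 18.2, 4.84, 16.1 and 11.7 CPM in female LKO mice, without overlap. Its female log2 fold change was 2.11 (SE 0.402, edgeR adjusted p = 0.0148), lost without female CRE- replicate 2 (2.11, edgeR adjusted p = 0.0582), the largest adjusted p over fits without 1 female mouse, which began at 0.0049. Stat3 was lower in each male LKO mouse than in each male CRE- mouse, at -0.71 (SE 0.25, edgeR adjusted p = 0.331).

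Of 8 hepcidin suppressors and erythroid signals 6 were tested and none passed in edgeR; 1 had an unadjusted p under 0.05 in males and 2 in females. Erfe and Epo were too low. Gdf15, a stress hormone named as a suppressor of hepcidin, was at 5.42, 3.32, 4.58 and 5.42 CPM in male CRE- and 25.2, 10.3, 14.4 and 10.3 CPM in male LKO mice. These groups did not overlap, at a log2 fold change of 1.69 (SE 0.368, edgeR adjusted p = 0.0563). In females it was -0.13 (SE 0.357, edgeR adjusted p = 0.883). Fgl1, a hepatocyte protein that can lower hepcidin and the most abundant gene of the list per length, had -0.49 in males (SE 0.331, edgeR adjusted p = 0.677) and 0.87 in females (SE 0.333, edgeR adjusted p = 0.137).

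Of 10 other regulators of Hamp transcription none passed in males in edgeR, with 3 at an unadjusted p under 0.05, and 1 rose in females. This was Myc, a growth regulator, at 4.66, 2.98, 3.23 and 3.10 CPM in female CRE- and 12.6, 9.62, 11.7 and 24.5 CPM in female LKO mice, without overlap. Its log2 fold change was 2.06 (SE 0.447, edgeR adjusted p = 0.0231), and the call was lost without female LKO replicate 4 (1.69, edgeR adjusted p = 0.0521) or any 1 of female CRE- replicates 2, 3 and 4 (edgeR adjusted p from 0.0679 to 0.0846). Cebpa, a hepatocyte factor needed for Hamp transcription, was at 399, 560.5, 697 and 743 CPM in female CRE- and 172, 462, 338 and 227 CPM in female LKO mice. It overlapped by 1 mouse, at -1.002 (SE 0.302, edgeR adjusted p = 0.0679). Ddit3, a stress factor, had 0.82 in males (SE 0.287, edgeR adjusted p = 0.321).

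Cell type markers were read beside the iron genes, since ferroportin and Slc11a1 are also macrophage genes and red cell precursors use iron. In a bulk tissue, fewer cells of a type and less RNA per cell cannot be told apart. The sum of 12 Kupffer cell genes, markers of resident liver macrophages, was 892, 673, 744 and 1432 CPM in female CRE- and 4171, 1129, 2642 and 1555 CPM in female LKO mice. In males it was 1013, 554, 297 and 1518 CPM in CRE- and 1376, 769, 854 and 786 CPM in LKO mice. None was at 0 in any library, and Cd5l had the highest level in 12 of the 16 libraries. Male CRE- replicate 3 was the lowest of the 16 mice for 9 of the 12. The mouse with the largest sum, female LKO replicate 1, was also the highest for Slc40a1 and Slc11a1. In females 1 of 12 rose, Adgre1 (2.15, edgeR adjusted p = 0.0451), and it was lost without female LKO replicate 1 (1.21, edgeR adjusted p = 0.189) among others. In females 12 of 12 were above 0 and 9 had an unadjusted p under 0.05. None passed in males, with 1 at an unadjusted p under 0.05. Their part in the result was not tested.

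The sum of 9 neutrophil genes was 39.1, 19.9, 16.9 and 19.004 CPM in female CRE- and 143, 44.4, 77.6 and 669 CPM in female LKO mice. In males it was 98.3, 20.6, 17.3 and 199 CPM in CRE- and 26.8, 16.97, 13.5 and 12.6 CPM in LKO mice. S100a9 had the highest level in 13 of the 16 libraries, and the defining marker Ly6g was at 0 in 9 of the 16 libraries. Of 8 tested genes 3 rose in females, Retnlg (2.86), Mpo (5.23) and Ngp (4.68), where 4.24% of all genes passed. In females 8 of 8 had an unadjusted p under 0.05 (21.4% of all genes). None passed in males, where 8 of 8 were below 0 (median -2.23) and 7 had an unadjusted p under 0.05. Without female LKO replicate 4 these calls were lost, at 2.04, 4.20 and 2.79, and each was also lost without several other mice and with females fitted alone. Their part in the result was not tested.

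The sum of 10 erythroid genes was 774, 631, 565 and 1046 CPM in male CRE- and 198, 398, 308 and 496 CPM in male LKO mice, each LKO mouse being below each CRE- mouse. In females it was 548, 487, 396 and 793 CPM in CRE- and 416, 874, 307 and 1658 CPM in LKO mice. Hbb-bs had the highest level, and Ermap and Ahsp were each at 0 in some libraries. Of 9 tested genes 1 fell in females, Klf1 (-1.24), a call lost under most alternatives, while the other 8 were above 0 (median of the 9 genes 0.58, with 3 at an unadjusted p under 0.05). Without female LKO replicate 4 the median was 0.06, with 6 of 9 above 0. None passed in males, where 9 of 9 were below 0 (median -1.28) and 6 had an unadjusted p under 0.05. Their part in the result was not tested.

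Proliferation genes summed to 41.6, 45.9, 41.9 and 60.1 CPM in female CRE- and 135, 56.5, 82.8 and 82.2 CPM in female LKO mice. In females 5 of 10 rose, Top2a, Cdk1, Ccnb1, Aurkb and Birc5, where 4.24% of all genes passed, and Pcna had the highest level. All 10 were above 0 in females (median 1.7), and 9 had an unadjusted p under 0.05 (21.4% of all genes). The calls of Top2a, Cdk1, Ccnb1 and Birc5 were lost with females fitted alone (edgeR adjusted p from 0.0638 to 0.0862) and without female LKO replicate 1, among others, and that of Aurkb was not followed through the alternatives. In males the sums lay between 40.2 and 52.3 CPM and no gene passed, with 2 at an unadjusted p under 0.05. Of the recruited macrophage genes 1 of 8 rose in females (Trem2, 2.701), where 8 of 8 were above 0 and 5 had an unadjusted p under 0.05, and of sinusoidal endothelium genes 1 of 10 (Cdh5, 0.79), where 5 of 10 were below 0 and 3 had an unadjusted p under 0.05. Each of these calls was lost without any 1 of female CRE- replicates 2, 3 and 4 and female LKO replicate 1, and that of Cdh5 also with females fitted alone (edgeR adjusted p = 0.0766). None of either list passed in males, with 1 of each at an unadjusted p under 0.05. None of 9 stellate, 9 lymphocyte or 6 cholangiocyte genes passed in edgeR in either sex, with 1, 0 and 0 at an unadjusted p under 0.05 in males and none in females. Between the control sexes 1 marker passed, the cholangiocyte gene Krt19, higher in females. Their part in the result was not tested.

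Across the 16 mice, the level of Hamp was set against that of each of the other 9 genes in log2 CPM. Hamp2 had Pearson's r of 0.62 (permutation p = 0.0087, adjusted over the 9 relations 0.044). Trf had r of -0.65 (permutation p = 0.00977, adjusted 0.044) and Tfrc r of -0.75 (permutation p = 0.0387, adjusted 0.116). By rank, rho was 0.57 for Hamp2 (permutation p = 0.0237, adjusted 0.107), -0.27 for Trf (permutation p = 0.306) and -0.12 for Tfrc (permutation p = 0.655). Without female LKO replicates 2 and 4, the mice farthest from the median of Hamp, r was 0.53 for Hamp2, which no longer passed (adjusted 0.222), -0.18 for Trf and 0.17 for Tfrc. The relations with Trf and Tfrc thus rested on those mice. With Id1 the relation was r of 0.42 (permutation p = 0.0969, adjusted 0.174), rho of 0.60 (permutation p = 0.0148, adjusted 0.107) and r of 0.64 without those mice (permutation p = 0.0188, adjusted 0.169). Within males alone r with Id1 was 0.78 (exact permutation p = 0.0302, adjusted 0.208, 8 mice), and within females 0.51 (exact permutation p = 0.209, 8 mice). No relation passed after adjustment by rank, within 1 sex, or with group means removed.

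The genes whose level was most like that of Hamp over the 16 mice were Abi3bp (r of 0.93), 9430065F17Rik, Id2, Apoa5 and Aard (0.88), among 16741 genes compared. Without female LKO replicates 2 and 4 their r lay between 0.42 and 0.66. For Tfrc they were Cttn (0.91), Slc11a2, Krt8, Slc1a4 and Plekhh1 (0.79), each highest in female LKO replicate 4, and their r lay between 0.17 and 0.60 without that mouse and male CRE- replicate 2. Slc11a2 encodes the iron transporter DMT1. For Id1 they were Npm1 (0.80), Phf10, Slc3a2, Gas5 and Rpl36a (0.76), each highest in male LKO replicate 1, and their r lay between 0.41 and 0.62 without that mouse and male CRE- replicate 3. The values are a description, since the genes were picked for a high r.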

How the data were processed

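Liver RNA of 16 mice was read as paired 150-base poly-A libraries. The authors aligned reads to GRCm39 with STAR 2.7.1a and deposited raw counts per gene from featureCounts (Subread 2.0.6), strand-specific, counting each read of a pair and no multi-mapping read. All 16 columns were used and 0 left out. From the counts, edgeR 4.0.16 (R 4.3.3) gave TMM scaling, filterByExpr (minimum count 10) and 1 quasi-likelihood fit of the 4 groups, with Benjamini-Hochberg adjustment over the 16742 genes tested and a threshold of 0.05. There were 5 comparisons: LKO against CRE- in each sex, the difference between the sexes, the mean over both, and female against male CRE-. The SE of a log2 fold change was its size divided by the square root of the quasi-likelihood F statistic. CPM and RPKM used TMM library sizes, RPKM the table's exon length. Correlations used log2 CPM (prior count 2) and 100000 two-sided permutations, or exact ones for 8 mice. The edgeR fit was tested on simulated counts with known changes and the same spread set for every gene. That test did not cover genes as variable as Hamp.

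The text names the 10 genes, Gcgr, and from each of the other gene lists the genes called in males or females, up to 4 per comparison, or else those with the smallest p and the highest RPKM (for marker lists, not all of these); for likeness, the 5 genes with the highest r. Fth1, Smad6, Atoh8, Aurkb, Krt19 and the genes too low to test were named after their values were seen. Not every marker gene in a sum or count is named. Members and lists were chosen with earlier results of these data known. Alternatives were DESeq2 1.42.0, RLE scaling, no filter, each sex alone, the replicate number as a block, and each of 16 libraries left out.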

Additional observations from a re-analysis of the deposited data

Results flagged for a closer look

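Within groups of 4, a mouse was singled out when its gap to the nearest other took up more of the group's range than Dixon's 95% limit allows. Chance singles out about 1 in 20 groups; of the 40 groups of the 10 iron genes, 2 had such a mouse. Tfrc was at 152 CPM in female LKO replicate 4, against 16.4 to 21.8 CPM in the other female LKO mice. Hjv was at 95.8 CPM in male CRE- replicate 4, against 76.1 to 78.7 CPM in the other male CRE- mice. Gcgr, outside those 40 groups, was at 127 CPM in male CRE- replicate 3, against 189.6 to 193 CPM in the other male CRE- mice, and that mouse was thus at the level of male LKO mice.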

How the results depend on the processing

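With DESeq2, 1 of the 10 iron genes was called in males, 2 over both sexes and 1 between control sexes, and all genes called numbered 339 in males, 1809 in females, 371 for the difference between sexes, 1034 over both and 506 between control sexes. With females fitted alone no iron gene and 119 genes in all were called (in the joint fits edgeR and DESeq2 each called 1 iron gene, and 3 had an unadjusted p under 0.05 in edgeR). Without the filter, 1 iron gene was called over both sexes and 1 between control sexes, and 12 genes for the difference between sexes. Leaving out each mouse in turn gave 26 to 111 genes in males, 87 to 1310 in females, 0 to 14 for the difference between sexes, 299 to 598 over both and 68 to 213 between control sexes; for the iron genes the ranges were 0 to 2 in females, 0 to 2 over both sexes and 0 to 1 between control sexes. Of the relations with Hamp, 2 passed by Pearson's r over all mice and 0 by rank, without 2 mice, in males, in females or with group means removed.

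Signs turned when 1 mouse was left out, over these ranges of log2 fold change: Hamp2 in males -1.11 to 0.0226; Tfrc in females -0.38 to 1.38, over both sexes -0.44 to 0.47 and between control sexes -0.15 to 0.39; Trf in females -0.0700 to 0.55. Bmp6 ranged from -0.22 to 0.29 in females and from -0.465 to 0.0423 for the difference between sexes, and Id1 in females from -0.27 to 0.11. Smad7 ranged from -0.30 to 0.69 in males, from -0.35 to 0.14 over both sexes and from -0.31 to 0.00116 between control sexes. Between control sexes Tfr2 ranged from -0.00158 to 0.0834 and Slc40a1 from -0.0895 to 0.118. The cause was not tested.

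Of 8 pairs of mice with the same replicate number 3 had a correlation over 0.1 (range -0.12 to 0.192), and 8 of 16 libraries correlated best with their own number, where chance gives 4. No p was computed for this difference from chance. The labels name no unit that mice with the same replicate number share. In male CRE- and female LKO mice these numbers differ in part from those in the library names. With the replicate block 2 iron genes, Hamp2 and Hjv (-0.73, edgeR adjusted p = 0.0422), and 1244 genes in all were called in females, against 710 without it. Under the block the sign turned for Tfrc (-0.0236) and Slc40a1 (0.0100) between control sexes, Bmp6 in females (-0.0373) and Smad7 over both sexes (-0.11).

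With 4 mice per group and an SD near the mean, as for Hamp in female LKO mice, moderate differences could not be told from spread. The near-identity of the hepcidin genes limits low Hamp2 levels.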

Other observations

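Genes that use iron were read as well. Of 8 genes of haem synthesis none passed in edgeR in either sex, with 0 at an unadjusted p under 0.05 in males and 3 in females. In females 7 of 8 were below 0, with a median log2 fold change of -0.35. Female LKO replicate 1 was the lowest of the 16 mice for 7 of 8. The share of all genes lowest in this mouse is not given, here or for the next list. Uros, an enzyme of the pathway, had -0.68 in females (SE 0.222, edgeR adjusted p = 0.0866). Alas1, its first and rate-limiting enzyme in liver, had 0.59 in females (SE 0.526, edgeR adjusted p = 0.571) and -0.61 in males (SE 0.526, edgeR adjusted p = 0.749). Urod had 0.33 in males (SE 0.202, edgeR adjusted p = 0.642).

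Of 12 genes of mitochondrial iron and iron-sulfur clusters 11 were tested and none passed in edgeR, with 0 at an unadjusted p under 0.05 in males and 2 in females. In females 9 of 11 were below 0 (median -0.28), and female LKO replicate 1 was the lowest mouse for 8 of 11. Abcb10, a transporter of the inner mitochondrial membrane, had -0.66 in females (SE 0.205, edgeR adjusted p = 0.076), without overlap. Lyrm4 had 0.40 in males (SE 0.201, edgeR adjusted p = 0.559), and Glrx5, with the highest level per length, had 0.14 in males and -0.41 in females.

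Of 13 genes of haem handling none passed in edgeR, with 4 at an unadjusted p under 0.05 in each sex, and the median was 0.38 in males and 0.41 in females. Hmox2, a haem oxygenase, had 0.66 in males (SE 0.204, edgeR adjusted p = 0.229), without overlap. Flvcr1, a haem exporter, had 1.16 in females (SE 0.325, edgeR adjusted p = 0.0538), without overlap.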
